A study of Mus musculus with 96 samples.

Results

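The transcriptional response of striatal astrocytes to bacterial lipopolysaccharide (LPS) was set against their response to a Gq-coupled designer receptor, gene by gene. The 16 libraries used for this, of 96 in the series, were chosen by their labels: they are the pull-down (IP) libraries of 2 experiments, with 4 mice in each of 4 groups. LPS mice had LPS at 5 mg/kg injected into the abdomen 24 h before collection, and LPS vehicle mice had vehicle alone. By their labels, CNO mice and hM3Dq vehicle mice expressed hM3Dq in striatal astrocytes. CNO mice had clozapine N-oxide (CNO), the drug that activates this receptor, at 1 mg/kg into the abdomen, and hM3Dq vehicle mice had vehicle. The time between CNO and collection is not stated in the labels for hM3Dq. All 16 mice were C57BL/6 and carried the RiboTag virus, an AAV that gave striatal astrocytes an HA-tagged copy of the ribosomal protein Rpl22 for 3 weeks. Antibodies to the tag pulled down ribosomes with the RNA bound to them, so that the IP libraries hold RNA of tagged cells together with whatever else was carried along. Each mouse also gave 1 input library, made from the lysate. The promoter that drove hM3Dq is not stated, and mice given CNO without the receptor were not among the groups. An effect of the receptor under CNO and an effect of CNO alone therefore cannot be told apart. The 2 experiments had no mice in common, neither treated nor vehicle, and carry different description codes in the labels, so each treatment was compared with its own vehicle and only the 2 changes were set against each other.

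As background, LPS is a component of the outer membrane of Gram-negative bacteria and is sensed by the receptor TLR4, which leads to activation of NF-kappa-B and of interferon regulatory factors. Given into the abdomen it also raises circulating cytokines and glucocorticoids, so an astrocyte in the brain can respond to LPS itself or to signals from other cells. hM3Dq is a muscarinic receptor altered so that it ignores acetylcholine and responds to CNO. Through Gq and phospholipase C it releases calcium from internal stores and activates protein kinase C and the MAP kinase cascade, which are classic inducers of immediate early genes through serum response factor and CREB.

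The IP libraries held 42482788 to 82256193 reads counted in genes, recovered from the deposited FPKM (read counts scaled to gene length and library total), and 14108 genes that reached 0.5 FPKM in 4 or more IP libraries were tested. Chrm3, the endogenous gene of the same muscarinic receptor type, had 2.42, 3.09, 4.63 and 3.07 FPKM in the LPS libraries, against 3.15, 5.21, 3.26 and 4.48 FPKM in their vehicle libraries. It had 136, 63.3, 92.5 and 85 FPKM in the CNO libraries, against 74.1, 100.7, 82.2 and 110.4 FPKM in the hM3Dq vehicle libraries. The hM3Dq libraries were thus all far above the LPS experiment, with overlapping CNO and vehicle values. Whether reads of the hM3Dq transgene count in this entry was not tested.

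Libraries within a group were close to each other with 2 exceptions. The position of each library along the LPS change was taken over the 5040 genes called after LPS. Each gene's log2 distance from the library's own vehicle mean was weighted by that gene's mean LPS change, so genes with large changes count most. As a percent of the mean LPS change, the position was 120.0%, 50.5%, 117% and 113% in LPS replicates 1 to 4. LPS replicate 2 thus lay nearer to its vehicles than any other LPS mouse did. The CNO libraries reached 46.4%, 67.7%, 49.4% and 42.5% along the same genes, with replicate 2 the highest. Over the 6245 genes called after CNO, LPS replicates reached 58.5%, 20.3%, 61% and 50.9% of the CNO distance. LPS replicate 2 was near the other LPS mice for Lcn2 and Timp1 and near vehicle for Cxcl10 and Tlr2, as given with these genes. CNO replicate 2 was the highest CNO library for several inflammatory genes. The main counts below are given with all libraries, and again without LPS replicate 2 and without CNO replicate 2.

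**Figure D1:**
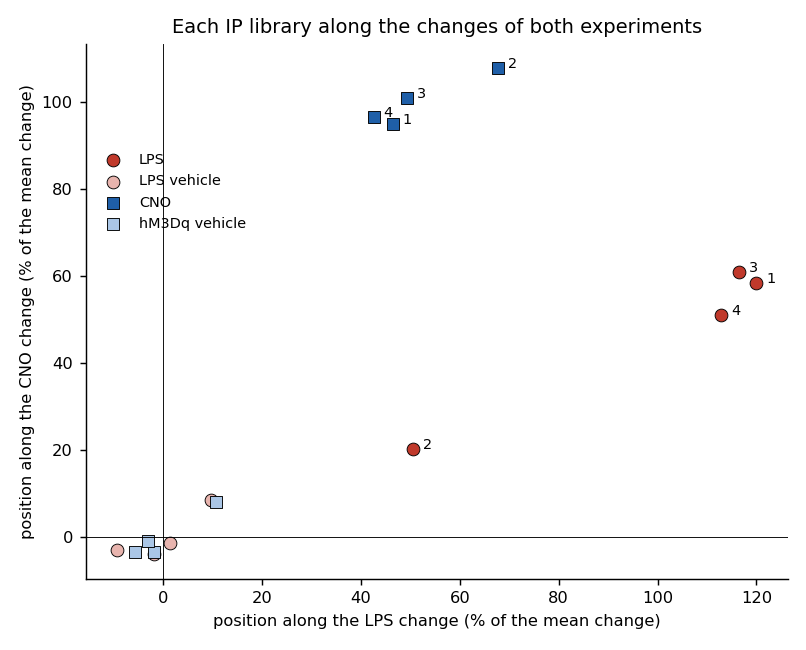
Position of each IP library along the genes called after LPS (x axis) and along the genes called after CNO (y axis), as a percent of the mean change, with 0% at the library's own vehicle mean; treated groups average 100% on their own axis by construction, and numbers are replicates. LPS replicate 2 lies at 50.5% on the LPS axis, against 113 to 120.0% for the other LPS libraries, and CNO replicate 2 lies at 67.7% on that axis, against 42.5 to 49.4% for the other CNO libraries.

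The labelled cell type was checked against marker lists. The 20 astrocyte markers summed to 10398 to 11317 FPKM in LPS IP libraries and 9714 to 11452 FPKM in their vehicle libraries. In CNO IP libraries they summed to 9256 to 12185 FPKM, against 13611 to 14890.0 FPKM in hM3Dq vehicle IP libraries, and in the 16 input libraries of both experiments to between 1807 and 2195 FPKM. Astrocyte RNA was thus enriched in every IP library. Markers of striatal interneurons and of ependymal cells were also higher in IP than in input. Interneuron markers summed to 844 to 1711 FPKM in the 16 IP libraries and 258 to 502 FPKM in the 16 input libraries. Ependymal markers summed to 51.9 to 183 FPKM in IP and 18.9 to 42.0 FPKM in input. Enrichment in IP is therefore not particular to astrocytes. Markers of medium spiny neurons, the principal striatal cell type, were still present, at 1414 to 1991 FPKM in LPS and 1770.2 to 2201 FPKM in LPS vehicle libraries, and at 1035 to 1451 FPKM in CNO and 1296 to 1470.4 FPKM in hM3Dq vehicle libraries. Microglial markers summed to 25 to 30.5 FPKM in LPS and 29.3 to 33.1 FPKM in LPS vehicle libraries, and 8 leukocyte markers were under 0.5 FPKM in all 16. In bulk RNA, fewer cells of a type and less RNA per cell cannot be told apart.

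Both treatments moved a large share of the genes tested in the pull-down, which holds RNA of tagged cells and RNA carried along. Of the genes that rose after CNO, 37.6% also rose after LPS (20.6 to 53.3% with any 1 library left out), beside 17.4% of all genes tested. The low end goes with 1312 genes higher after LPS (without LPS replicate 3) and the high end with 4099 (without LPS replicate 2). Shared risers were led by reactive astrocyte genes such as Sphk1, Ptx3, Hspb1 and Socs3. Most genes of MHC class I presentation and of complement rose after LPS and none of these rose after CNO, whereas most cholesterol synthesis genes and the growth factor receptor Met rose after CNO and not after LPS. Summed over their lists, the MHC class I and complement genes were already higher in every hM3Dq vehicle library than in any LPS vehicle library. A small class moved in opposite directions, among them Txnip and Ppp1r3c.

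After LPS 5040 of 14108 genes passed an adjusted p of 0.05 (35.7%, limma with Benjamini-Hochberg adjustment), 2459 higher (17.4%) and 2581 lower (18.3%). The counts without LPS replicate 2 were 4099 higher and 4361 lower, and without any 1 of the 7 other libraries they were 1312 to 1732 and 749 to 1315. With the deposited scaling the split was 1885 higher to 3973 lower, and the median log2 change of all genes after LPS was then -0.16 in place of -0.03. After CNO 6245 genes passed (44.3%), 3363 higher (23.8%) and 2882 lower (20.4%), or 3208 and 2862 without CNO replicate 2. The 2 log2 changes themselves differed for 4410 genes (31.3%), of which 1877 were higher after LPS than after CNO (13.3%) and 2533 lower (18%). These were 3096 and 3636 without LPS replicate 2, 1986 and 2511 without CNO replicate 2, and 1407 and 2944 with the deposited scaling.

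From these 3 calls each gene was put in a class. Shared genes passed in both experiments in the same direction, and there were 1265 shared risers (8.97%) and 854 shared fallers (6.05%). Opposite genes passed in both in opposite directions with the difference called, 185 of them higher after LPS and lower after CNO (1.31%) and 305 the reverse (2.16%). Specific genes passed in 1 experiment, not in the other, and passed the test of the difference in the same sense. LPS-specific risers made up 3.91% of the genes tested, and there were 744 LPS-specific fallers (5.27%), 1086 CNO-specific risers (7.7%) and 869 CNO-specific fallers (6.16%). A gene called in 1 experiment alone without a called difference is in no class.

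Class sizes depended on LPS replicate 2. Without it there were 1790 shared risers, 1318 shared fallers, 1239 LPS-specific risers, 1570 LPS-specific fallers, 413 genes higher after LPS and lower after CNO and 622 of the reverse. Leaving out CNO replicate 2 gave 1155 shared risers, 809 shared fallers and 540 opposite genes. Without LPS replicate 2, CNO-specific risers numbered 719 and CNO-specific fallers 771. Over all 16 single-library exclusions, shared risers ranged over 696 to 1790, shared fallers over 290 to 1318, LPS-specific risers over 303 to 1239 and LPS-specific fallers over 210 to 1570. CNO-specific risers ranged over 719 to 1382 and CNO-specific fallers over 608 to 979, and the opposite classes over 108 to 413 and 69 to 622. Of the members, 1258 of the 1265 shared risers and 532 of the LPS-specific risers were in the same class without LPS replicate 2, against 653 of the 1086 CNO-specific risers.

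The shared risers made up 51.4% of the genes higher after LPS and 37.6% of those higher after CNO, and the shared fallers 33.1% and 29.6% of the genes lower. Over all genes tested, 23.8% were higher after CNO and 17.4% after LPS, and 20.4% and 18.3% were lower. Without LPS replicate 2 the shared genes were 43.7% of the genes higher after LPS and 53.3% of those higher after CNO, and 30.2% and 45.8% of the genes lower. Without any 1 of the other 15 libraries, shared risers were 47.4 to 54.5% of the genes higher after LPS and 20.6 to 41.3% of those higher after CNO, and shared fallers 26.6 to 39% and 10.03 to 32.1% of the genes lower. The shared risers' median log2 change was 0.68 after LPS and 0.71 after CNO. For 1000 shared risers the difference was not called, 69 rose more after LPS and 196 rose more after CNO. Of the 716 genes (5.08%) raised at least 2-fold by LPS, 431 also passed higher after CNO, 25 passed lower and 260 did not pass. Of the 703 genes (4.98%) raised at least 2-fold by CNO, 440 also passed higher after LPS, 27 passed lower and 236 did not pass. Across all 14108 genes the 2 sets of log2 changes had a Pearson r of 0.471, a description over genes, which are not independent replicates.

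**Figure D2:**
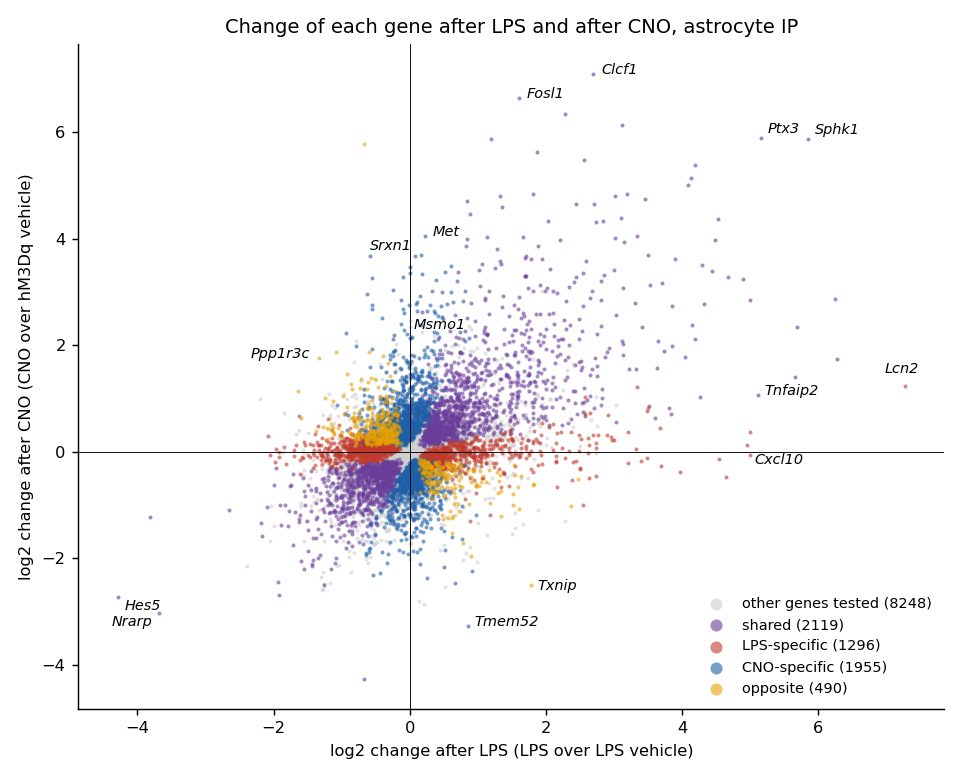
Log2 change after LPS (x axis) against log2 change after CNO in hM3Dq mice (y axis), 1 point per gene for the 14108 genes tested, coloured by class. Shared genes such as Sphk1 (log2 5.85 and 5.87) lie in the upper right and lower left, LPS-specific genes such as Cxcl10 (4.95 and 0.13) along the x axis and CNO-specific genes such as Srxn1 (0.16 and 3.70) along the y axis.

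The shared risers with the largest smaller change included Sphk1, Ptx3, Hspb1, Socs3, Maff and Timp1, and the arms did not overlap for any of them in either experiment, as the choice of genes required. Of all genes tested, 12.7% were higher after LPS without overlap and 20.4% after CNO. Values below run from replicate 1 to replicate 4. Sphk1, the kinase that makes sphingosine 1-phosphate, had 27, 2.33, 31.2 and 16.2 FPKM in the LPS libraries, against 0.238, 0.0945, 0.144 and 0.158 FPKM in their vehicle libraries. It had 14.5, 25.5, 27.6 and 13.9 FPKM in the CNO libraries, against 0.399, 0.202, 0.230 and 0.167 FPKM in the hM3Dq vehicle libraries. Hardly measurable in either vehicle group, Sphk1 was high in all 8 treated libraries, with LPS replicate 2 well below the other LPS mice. Its log2 change was 5.85 ± 0.78 (adjusted p = 0.0029) after LPS and 5.87 ± 0.28 (adjusted p = 1.5e-06) after CNO (± SE), and the difference of -0.03 had a 95% interval of -1.87 to 1.82. It was 6.72 after LPS without LPS replicate 2.

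Ptx3, a secreted pattern-recognition protein of innate immunity, had 155, 15, 144 and 90.8 FPKM in the LPS libraries, against 2.04, 1.03, 2.13 and 5.02 FPKM in their vehicle libraries. It had 44.2, 100.7, 62.1 and 49.9 FPKM in the CNO libraries, against 0.848, 1.07, 1.12 and 0.828 FPKM in the hM3Dq vehicle libraries. All treated libraries exceeded all vehicle libraries, and LPS replicate 2 was again the lowest LPS mouse. The log2 changes were 5.15 ± 0.81 (adjusted p = 0.0048) and 5.89 ± 0.24 (adjusted p = 7.3e-07), with 5.97 after LPS without LPS replicate 2. Hspb1, a small heat shock protein that stabilises the actin cytoskeleton, had 135, 49.3, 144 and 79.7 FPKM in the LPS libraries, against 4.21, 4.01, 3.25 and 6.36 FPKM in their vehicle libraries. It had 45.1, 80.2, 89.2 and 51 FPKM in the CNO libraries, against 4.99, 2.82, 2.26 and 2.82 FPKM in the hM3Dq vehicle libraries. Both treatments raised it in every mouse, by log2 4.53 ± 0.39 (adjusted p = 0.00067) after LPS and 4.37 ± 0.28 (adjusted p = 7.1e-06) after CNO.

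Socs3, the feedback inhibitor of STAT3 signalling, had 41.7, 5.31, 64.7 and 48.4 FPKM in the LPS libraries, against 1.48, 1.15, 1.43 and 3.51 FPKM in their vehicle libraries. It had 81, 100.0, 66.3 and 68.2 FPKM in the CNO libraries, against 3.81, 1.75, 1.60 and 2.04 FPKM in the hM3Dq vehicle libraries. The lowest treated value, LPS replicate 2, still exceeded the highest LPS vehicle value. Socs3 changed by log2 4.13 ± 0.79 (adjusted p = 0.0096) after LPS (4.99 without LPS replicate 2) and 5.14 ± 0.26 (adjusted p = 1.9e-06) after CNO. Timp1, a secreted inhibitor of matrix metalloproteinases, had 131, 129.8, 87.3 and 64.9 FPKM in the LPS libraries, against 4.77, 2.80, 3.25 and 11.5 FPKM in their vehicle libraries. It had 45.5, 64, 46.1 and 42.2 FPKM in the CNO libraries, against 4.19, 3.69, 1.74 and 3.29 FPKM in the hM3Dq vehicle libraries. For this gene LPS replicate 2 was among the highest LPS libraries, and the changes were 4.49 ± 0.43 (adjusted p = 0.00081) and 3.98 ± 0.26 (adjusted p = 7.1e-06).

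Maff, a small Maf transcription factor, had 36.5, 6.06, 39.3 and 35.2 FPKM in the LPS libraries, against 1.37, 1.06, 1.13 and 2.50 FPKM in their vehicle libraries. It had 78.6, 72.7, 69.2 and 60.2 FPKM in the CNO libraries, against 4.97, 1.78, 1.43 and 1.61 FPKM in the hM3Dq vehicle libraries. The groups did not overlap, and the changes were 4.08 ± 0.64 (adjusted p = 0.0048) after LPS and 5.01 ± 0.34 (adjusted p = 9.8e-06) after CNO. Its LPS change was 4.78 without LPS replicate 2.

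A set of 6 motifs was searched on both strands in the 250 bases before each annotated start: GGANTTTCC for NF-kappa-B, TGACGTCA for the cAMP response element bound by CREB, TGAGTCA for AP-1, GAAANNGAA for the core of the interferon-stimulated response element, CCATATTAG for the core of the serum response element and TTGCGCAA for C/EBP. The promoters printed here and below were chosen after the matches were seen, from genes with large changes, as examples of windows that hold these letters. Maff has 3 annotated start windows (RefSeq, GRCm38.p6). The window at chr15:79347270-79347519 (plus strand) holds a cAMP response element at bases 222 to 229, and the window at chr15:79348152-79348401 (plus strand) holds the NF-kappa-B letters at bases 181 to 189, both in capitals. The third window holds none of the 6.
Maff, cAMP response element: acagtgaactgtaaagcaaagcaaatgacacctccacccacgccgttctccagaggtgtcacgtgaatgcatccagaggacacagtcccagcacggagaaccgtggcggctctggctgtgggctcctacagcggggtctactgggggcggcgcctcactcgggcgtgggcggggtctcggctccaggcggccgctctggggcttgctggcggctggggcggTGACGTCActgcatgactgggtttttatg
Maff, NF-kappa-B: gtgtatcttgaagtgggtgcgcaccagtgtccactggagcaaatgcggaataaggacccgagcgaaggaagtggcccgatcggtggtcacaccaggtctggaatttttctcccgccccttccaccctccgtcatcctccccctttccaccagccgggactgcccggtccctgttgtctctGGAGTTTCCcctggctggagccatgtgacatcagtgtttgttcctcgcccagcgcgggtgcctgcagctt

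Over the 10359 tested genes with a promoter in the table, the NF-kappa-B letters were in 2.55% of shared risers, 4.04% of LPS-specific risers and 0.840% of CNO-specific risers, beside 1.38% of all. The cAMP response element was in 4.49%, 1.43% and 4.44% in the same order of classes, beside 3.12% of all. AP-1 letters were in 6.95%, 6.65% and 4.44%, beside 3.95%, and the interferon core in 8.48%, 9.26% and 6.72%, beside 7.31%. The serum response element core was in 0%, 0% and 0.240%, beside 0.0772%, and the C/EBP letters in 0.306%, 0.238% and 0.720%, beside 0.290%. These are counts of letters in the windows, not of bound sites, and no test was made between classes.

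**Figure D3:**
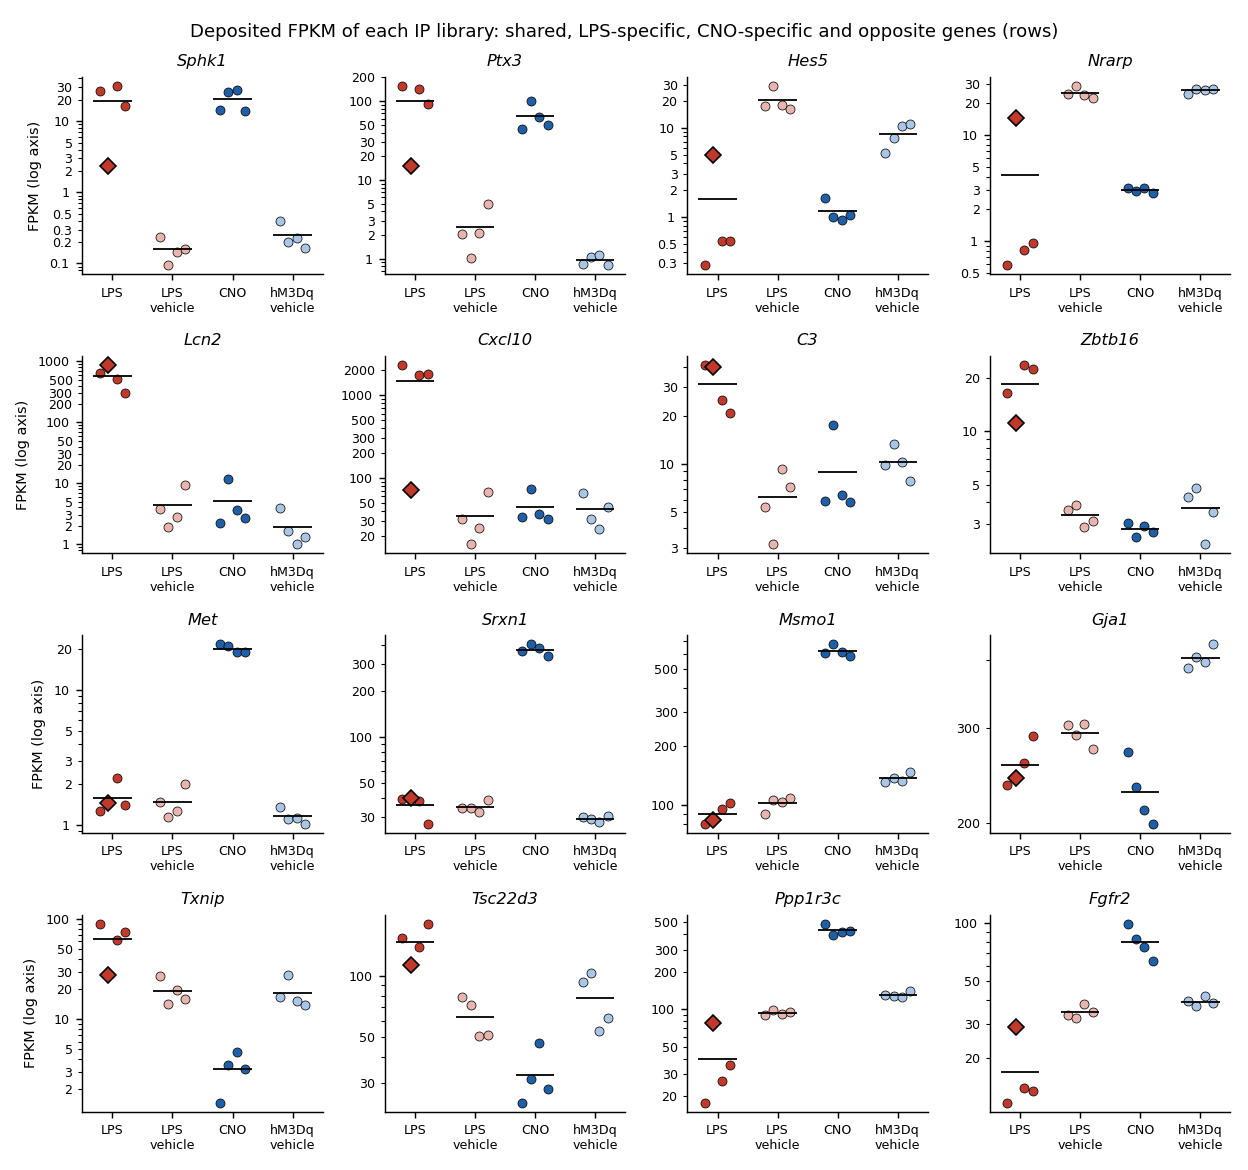
Deposited FPKM of each IP library (log axes) for 16 genes, by group, with the group mean as a bar and LPS replicate 2 as a diamond; rows show shared, LPS-specific, CNO-specific and opposite genes, except that Gja1 in the third row fell after CNO. Sphk1 is at 2.33 to 31.2 FPKM in LPS and 13.9 to 27.6 FPKM in CNO libraries and under 0.5 FPKM in all 8 vehicle libraries, and Cxcl10 is at 1765 to 2309 FPKM in 3 LPS libraries and at 71.7 FPKM in LPS replicate 2.

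Reactive astrocyte genes rose in both experiments, with the A2 list tilted towards CNO and the NF-kappa-B list towards LPS. These lists, the A1 and A2 sets and the pan-reactive set among them, are published or textbook groups and were chosen with earlier results of these libraries known. Where leaving out any 1 library moved a count of list members by more than 1.5 times, the range of that count stands in brackets after it. Of the 13 pan-reactive genes tested, 13 rose after LPS and 10 after CNO, with median log2 changes of 2.96 and 1.90, beside -0.03 and -0.00 for all genes tested. Of the 12 A2 genes, 10 rose after LPS and 12 after CNO (medians 2.75 and 4.17), and for 0 (0 to 1) the change was larger after LPS and for 6 larger after CNO. Of the 16 NF-kappa-B feedback and acute-phase genes, 16 rose after LPS and 12 after CNO (medians 2.69 and 1.04), with 8 (5 to 12) larger after LPS and 1 larger after CNO. Of the 12 genes of interleukin-6 family signalling, 9 rose after LPS, while 9 rose and 2 fell after CNO. Osmr, the oncostatin M receptor, changed by log2 2.81 ± 0.36 (adjusted p = 0.0026) and 3.21 ± 0.15 (adjusted p = 1.4e-06), and Cd109, a membrane protein of the A2 list, by 2.81 ± 0.28 (adjusted p = 0.00092) and 2.86 ± 0.17 (adjusted p = 4.2e-06).

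Larger after CNO were Clcf1, Emp1 and Fosl1. Clcf1, a cytokine of the interleukin-6 family, had 1.96, 1.10, 4.02 and 1.84 FPKM in the LPS libraries, against 0.257, 0.212, 0.202 and 0.361 FPKM in their vehicle libraries. It had 26.5, 55.6, 47 and 45 FPKM in the CNO libraries, against 0.199, 0.283, 0.168 and 0.224 FPKM in the hM3Dq vehicle libraries. Every treated library exceeded its vehicles, but the CNO libraries stood an order of magnitude above the LPS libraries. The changes were 2.69 ± 0.38 (adjusted p = 0.0034) after LPS and 7.09 ± 0.21 (adjusted p = 1.7e-07) after CNO, and the difference was -4.40 ± 0.45 (adjusted p = 6.9e-06). Emp1, an epithelial membrane protein of the A2 list, had 20.7, 5.91, 26.6 and 19.5 FPKM in the LPS libraries, against 2.68, 1.76, 2.76 and 5.10 FPKM in their vehicle libraries. It had 102, 119.7, 109 and 91.9 FPKM in the CNO libraries, against 2.42, 1.90, 2.43 and 2.53 FPKM in the hM3Dq vehicle libraries. LPS replicate 2 lay just above the highest LPS vehicle library, and the difference of the changes was -2.93 ± 0.56 (adjusted p = 0.0013).

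Fosl1, an AP-1 subunit, had 5.24, 1.78, 7.82 and 3.82 FPKM in the LPS libraries, against 1.70, 1.23, 0.861 and 2.20 FPKM in their vehicle libraries. It had 11.7, 19.4, 16.9 and 12.6 FPKM in the CNO libraries, against 0.120, 0, 0.0805 and 0.0322 FPKM in the hM3Dq vehicle libraries. The LPS arms overlapped and the CNO arms did not, and the changes were 1.60 ± 0.48 (adjusted p = 0.034) after LPS and 6.65 ± 0.27 (adjusted p = 6.4e-07) after CNO, with a difference of -5.05 ± 0.57 (adjusted p = 1.7e-05). The hM3Dq vehicle values are close to the 0.1 FPKM added before the logarithm, whereas the LPS vehicle values are 0.861 to 2.20 FPKM. The size of this difference therefore rests in part on unlike vehicle levels. The LPS call was lost without any 1 of 6 of the 8 libraries, that is all but LPS replicate 2 and LPS vehicle replicate 4 (adjusted p = 0.067 to 0.089), and without the filter on low values (adjusted p = 0.064) and with the replicate number as a block (adjusted p = 0.054). Of the 22 immediate early genes tested, 13 (6 to 14) rose and 2 (1 to 4) fell after LPS, and 17 rose and 0 fell after CNO. Their difference was called higher after LPS for 1 (1 to 7) and higher after CNO for 8, and without LPS replicate 2 for 7 and 9. Fos itself was at 35.3 ± 13.6 FPKM in LPS and 11.1 ± 4.77 FPKM in LPS vehicle libraries (SD, n = 4 each), and at 32.4 ± 3.26 FPKM in CNO and 10.2 ± 6.10 FPKM in hM3Dq vehicle libraries. Its changes of 1.79 ± 0.42 (adjusted p = 0.017) and 1.87 ± 0.34 (adjusted p = 0.0022) differed by -0.08, with a 95% interval of -1.28 to 1.13.

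Larger after LPS were Tnfaip2, Icam1 and Steap4. Tnfaip2, an NF-kappa-B target that shapes membrane protrusions, had 263, 22.9, 172 and 158 FPKM in the LPS libraries, against 3.27, 2.35, 3.21 and 5.95 FPKM in their vehicle libraries. It had 8.34, 16.1, 6.56 and 6.78 FPKM in the CNO libraries, against 5.71, 3.43, 3.74 and 4.44 FPKM in the hM3Dq vehicle libraries. The arms did not overlap in either experiment, and the changes were 5.11 ± 0.75 (adjusted p = 0.0039) after LPS and 1.07 ± 0.30 (adjusted p = 0.017) after CNO, with a difference of 4.04 ± 0.84 (adjusted p = 0.0023). Icam1, the adhesion molecule that binds leukocyte integrins, had 221, 29.7, 167 and 245 FPKM in the LPS libraries, against 10.8, 7.10, 9.21 and 12.7 FPKM in their vehicle libraries. It had 24.1, 29.6, 20.5 and 19.7 FPKM in the CNO libraries, against 20.8, 13.1, 11.5 and 13.8 FPKM in the hM3Dq vehicle libraries. CNO replicates 3 and 4 lay below hM3Dq vehicle replicate 1, so the CNO arms overlapped, and the changes were 3.83 ± 0.67 (adjusted p = 0.0069) and 0.72 ± 0.20 (adjusted p = 0.018), with a difference of 3.12 ± 0.73 (adjusted p = 0.005). When the spread was taken over all 16 libraries, the CNO calls of Tnfaip2 and Icam1 were lost (adjusted p = 0.17 and 0.29). Both were also lost without the filter on low values (adjusted p = 0.05 and 0.051). Steap4, a metalloreductase of the pan-reactive list, had 18.3, 25.3, 8.63 and 6.39 FPKM in the LPS libraries, against 0.227, 0.0484, 0.158 and 0.340 FPKM in their vehicle libraries. It had 0.385, 0.747, 0.627 and 0.658 FPKM in the CNO libraries, against 0.175, 0.246, 0.0624 and 0.221 FPKM in the hM3Dq vehicle libraries. Its CNO values stayed under 1 FPKM in all libraries but above each vehicle library, and the difference of the changes was 4.25 ± 0.56 (adjusted p = 6.6e-05).

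Among the shared fallers were targets of Notch, a receptor pathway through which neighbouring cells maintain glial identity. Nrarp, a Notch target that feeds back on the pathway, had 0.590, 14.4, 0.822 and 0.960 FPKM in the LPS libraries, against 24.4, 28.6, 23.8 and 22.2 FPKM in their vehicle libraries. It had 3.18, 2.96, 3.16 and 2.80 FPKM in the CNO libraries, against 24.1, 26.6, 26.4 and 27 FPKM in the hM3Dq vehicle libraries. LPS replicates 1, 3 and 4 were below every CNO mouse, LPS replicate 2 was above them, and no treated library overlapped its vehicles. The changes were -3.68 ± 0.83 (adjusted p = 0.015) after LPS and -3.02 ± 0.07 (adjusted p = 4.9e-08) after CNO. Their difference of -0.66 ± 0.86 (adjusted p = 0.6) was not called (95% interval -2.50 to 1.18), but without LPS replicate 2 the LPS change was -4.65 and the difference -1.62 (adjusted p = 2.4e-06), a larger fall after LPS.

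Hes5, a Notch target and transcriptional repressor, had 0.286, 4.98, 0.532 and 0.536 FPKM in the LPS libraries, against 17.7, 29.4, 18.1 and 16.4 FPKM in their vehicle libraries. It had 1.63, 1.00, 0.931 and 1.06 FPKM in the CNO libraries, against 5.17, 7.66, 10.6 and 11 FPKM in the hM3Dq vehicle libraries. As for Nrarp, LPS replicates 1, 3 and 4 were below every CNO mouse and LPS replicate 2 above them, and the changes were -4.29 ± 0.69 (adjusted p = 0.0051) and -2.72 ± 0.27 (adjusted p = 7.1e-05). Without LPS replicate 2 the difference was -2.32 (adjusted p = 0.00019), against -1.56 ± 0.77 (adjusted p = 0.13) with it. Vehicle values of Hes5 were 16.4 to 29.4 FPKM in the LPS and 5.17 to 11 FPKM in the hM3Dq experiment. The size of this difference therefore rests in part on unlike vehicle levels. Fam198a, which encodes a Golgi-associated protein, had 0.810, 4.43, 1.07 and 1.74 FPKM in the LPS libraries, against 7.29, 7.64, 7.26 and 6.10 FPKM in their vehicle libraries. It had 1.09, 0.757, 1.10 and 1.01 FPKM in the CNO libraries, against 6.08, 7.84, 7.25 and 7.02 FPKM in the hM3Dq vehicle libraries. All treated libraries were below all vehicles, with changes of -1.93 ± 0.40 (adjusted p = 0.012) and -2.68 ± 0.13 (adjusted p = 1.6e-06). Of the 14 Notch pathway genes tested, 4 (4 to 7) fell and 1 (0 to 3) rose after LPS, while 9 fell and 2 rose after CNO (medians -0.36 and -0.76). Without LPS replicate 2, 7 fell and 3 rose after LPS. Hey1, another Notch target, fell by 0.68 on the log2 scale after LPS (adjusted p = 0.011) and by 1.06 after CNO (adjusted p = 2.4e-05), and the receptor Notch3 was lower after CNO alone, with a difference of 1.35 ± 0.24 (adjusted p = 0.00068).

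Some markers of mural cells and of oligodendrocyte precursors were among the fallers. Of 6 mural markers tested, 1 (0 to 1) rose and 4 (1 to 4) fell after LPS, and 1 rose and 3 fell after CNO. Of 8 precursor markers, 0 rose and 2 (1 to 5) fell after LPS, and 1 rose and 4 fell after CNO, beside 18.3% and 20.4% of all genes that fell. The mural list, lower after LPS in sum but not after CNO, summed to 19.3 to 28.9 FPKM in LPS and 33.9 to 37.9 FPKM in LPS vehicle IP libraries, and to 34.5 to 62.7 FPKM in CNO and 34.3 to 37.6 FPKM in hM3Dq vehicle IP libraries. Their part in the shared fallers was not tested.

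The LPS-specific risers included genes of inflammation, antigen presentation and the glucocorticoid response. Lcn2, a secreted iron-siderophore carrier and a hallmark of reactive astrocytes, had 635.0, 863, 512.9 and 306 FPKM in the LPS libraries, against 3.79, 1.93, 2.81 and 9.29 FPKM in their vehicle libraries. It had 2.19, 11.8, 3.70 and 2.64 FPKM in the CNO libraries, against 3.85, 1.61, 0.988 and 1.31 FPKM in the hM3Dq vehicle libraries. LPS replicate 2 was the highest LPS library, and in the CNO arm replicate 2 alone exceeded the vehicle range. The change was 7.27 ± 0.47 (adjusted p = 0.00019) after LPS and 1.23 ± 0.56 (adjusted p = 0.11) after CNO, and the difference was 6.04 ± 0.77 (adjusted p = 5e-05).

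Tlr2, a receptor for bacterial lipoproteins, had 97.1, 6.75, 52 and 61 FPKM in the LPS libraries, against 1.29, 0.737, 1.17 and 1.89 FPKM in their vehicle libraries. It had 1.23, 2.00, 1.17 and 1.09 FPKM in the CNO libraries, against 2.29, 1.39, 1.03 and 1.25 FPKM in the hM3Dq vehicle libraries. LPS replicate 2 lay an order of magnitude below the other LPS mice yet above its vehicles, and the CNO arms overlapped. The change after LPS was 4.99 ± 0.80 (adjusted p = 0.0051), or 5.87 without LPS replicate 2, and the difference was 5.04 ± 0.87 (adjusted p = 0.00065). Cxcl10, an interferon-inducible chemokine that attracts T cells, had 2309, 71.7, 1765 and 1824 FPKM in the LPS libraries, against 31.7, 15.6, 24.8 and 67.4 FPKM in their vehicle libraries. It had 33.5, 73.4, 36.4 and 32 FPKM in the CNO libraries, against 66.2, 31.5, 24 and 44.7 FPKM in the hM3Dq vehicle libraries. LPS replicate 2 was barely above the highest LPS vehicle library, and the CNO and hM3Dq vehicle libraries overlapped. Its change was 4.95 ± 1.12 (adjusted p = 0.015) after LPS, 6.2 without LPS replicate 2, and 0.13 ± 0.36 (adjusted p = 0.81) after CNO, and the difference was 4.82 ± 1.23 (adjusted p = 0.0086).

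The promoter of Cxcl10 is shown because it holds 3 of the 6 motifs. In the 250 bases before its start, at chr5:92348890-92349139 (minus strand) in GRCm38.p6 (RefSeq), the interferon core is at bases 38 to 46, the NF-kappa-B letters start at base 93 and AP-1 letters are at 177 to 183, in capitals.
Cxcl10: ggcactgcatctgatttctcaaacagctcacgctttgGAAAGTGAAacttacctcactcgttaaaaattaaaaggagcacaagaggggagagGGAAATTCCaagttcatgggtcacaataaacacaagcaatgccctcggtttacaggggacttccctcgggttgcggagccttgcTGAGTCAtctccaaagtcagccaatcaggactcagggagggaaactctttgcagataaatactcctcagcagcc

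C3, the central complement component and a marker of A1 astrocytes, had 41.3, 40.0, 25 and 20.8 FPKM in the LPS libraries, against 5.42, 3.15, 9.27 and 7.21 FPKM in their vehicle libraries. It had 5.88, 17.6, 6.43 and 5.83 FPKM in the CNO libraries, against 9.85, 13.3, 10.3 and 7.85 FPKM in the hM3Dq vehicle libraries. The 4 LPS mice were all above their vehicles, LPS replicate 2 included, whereas CNO replicate 2 was above and the 3 other CNO mice were below all hM3Dq vehicles. The changes were 2.50 ± 0.34 (adjusted p = 0.0031) and -0.32 ± 0.35 (adjusted p = 0.51), with a difference of 2.82 ± 0.52 (adjusted p = 0.00097). Tapbp, which loads peptides onto MHC class I, had 151.3, 123, 123 and 150.1 FPKM in the LPS libraries, against 50.1, 34.4, 48.4 and 71.9 FPKM in their vehicle libraries. It had 37.9, 100.4, 45.5 and 41.5 FPKM in the CNO libraries, against 74.3, 50.8, 43.2 and 54.2 FPKM in the hM3Dq vehicle libraries. Its LPS libraries did not overlap their vehicles, and CNO replicate 2 was again apart from its group. The difference of the changes was 1.62 ± 0.40 (adjusted p = 0.0066). Zbtb16, a zinc finger factor induced by glucocorticoids, had 16.4, 11.1, 23.7 and 22.6 FPKM in the LPS libraries, against 3.58, 3.85, 2.88 and 3.10 FPKM in their vehicle libraries. It had 3.03, 2.51, 2.93 and 2.70 FPKM in the CNO libraries, against 4.25, 4.78, 2.29 and 3.48 FPKM in the hM3Dq vehicle libraries. It rose by log2 2.50 ± 0.27 (adjusted p = 0.0013) after LPS, and its change after CNO was -0.31 ± 0.20 (adjusted p = 0.26).

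Of the 12 MHC class I presentation genes tested, 11 rose after LPS and 0 (0 to 1) after CNO, with medians of 1.28 and 0.10. The difference was called for 6 (2 to 11) of them, for 9 without LPS replicate 2 and for 11 without CNO replicate 2. The list summed to 2784 to 3102 FPKM in LPS and 1018 to 1860 FPKM in LPS vehicle IP libraries. In CNO IP libraries it summed to 2775 to 6046 FPKM, and in hM3Dq vehicle IP libraries to 2715 to 5054 FPKM. The vehicle groups thus started at unlike levels, and the part of this in the called differences was not tested. Psmb10, a subunit of the immunoproteasome, changed by 1.45 ± 0.20 (adjusted p = 0.0034) after LPS and -0.12 ± 0.28 (adjusted p = 0.77) after CNO. Of the 10 complement genes, 7 rose after LPS, 2 fell after CNO and 9 (5 to 9) had a called difference higher after LPS. Here too the vehicle sums were unlike, at 2122 to 2359 FPKM in LPS vehicle and 3130 to 3618 FPKM in hM3Dq vehicle IP libraries. The treated sums were 2892 to 3162 FPKM after LPS and 2784 to 3952 FPKM after CNO. Cfb, factor B of the alternative pathway, was at 6.54 ± 3.53 FPKM in LPS and 0.718 ± 0.685 FPKM in LPS vehicle libraries, and at 2.32 ± 1.44 FPKM in CNO and 2.14 ± 0.767 FPKM in hM3Dq vehicle libraries (SD, n = 4 each). Of the 11 A1 genes, 10 rose after LPS, and 3 rose and 1 fell after CNO. Amigo2, an adhesion protein of the A1 list, rose by 1.34 ± 0.10 (adjusted p = 0.00035) after LPS and changed by -0.73 ± 0.10 (adjusted p = 0.00038) after CNO, a fall.

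Of the 20 interferon response genes, 11 (2 to 16) rose after LPS and 6 (5 to 10) after CNO (medians 1.36 and 0.41), and 4 (0 to 11) had a called difference. Without LPS replicate 2, 15 rose after LPS and 11 had a called difference. Irgm1, an interferon-induced GTPase, was at 466, 112, 535.97 and 635.1 FPKM in LPS libraries, against 71.3, 45, 76.5 and 107 FPKM in LPS vehicle libraries, and LPS replicate 2 lay closest to the vehicles. Its change after LPS was 2.48 ± 0.57 (adjusted p = 0.016), lost without LPS replicate 3 (adjusted p = 0.051). Of the 10 chemokines tested, 8 rose and 1 (0 to 1) fell after LPS and 4 rose and 1 fell after CNO. Ccl2, which attracts monocytes, rose in both, by 5.68 ± 1.09 (adjusted p = 0.0095) and 2.35 ± 0.52 (adjusted p = 0.006), and Cxcl9, an interferon-gamma target, changed by 3.68 ± 0.35 (adjusted p = 0.00081) after LPS and -0.26 ± 0.69 (adjusted p = 0.8) after CNO.

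All 14 glucocorticoid response genes tested rose after LPS, whereas 6 rose and 3 fell after CNO, and 11 had a called difference higher after LPS (medians 1.80 and 0.38). Fkbp5, a co-chaperone of the glucocorticoid receptor, rose in both experiments by 2.54 ± 0.13 (adjusted p = 9e-05) and 0.74 ± 0.09 (adjusted p = 0.00027), with a difference of 1.80 ± 0.17 (adjusted p = 2.8e-06). Mt2, a metallothionein that binds zinc and copper, rose by 3.13 ± 0.49 (adjusted p = 0.0048) and 2.03 ± 0.14 (adjusted p = 8.7e-06), with a difference of 1.10 ± 0.53 (adjusted p = 0.12) that was not called.

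**Figure D4:**
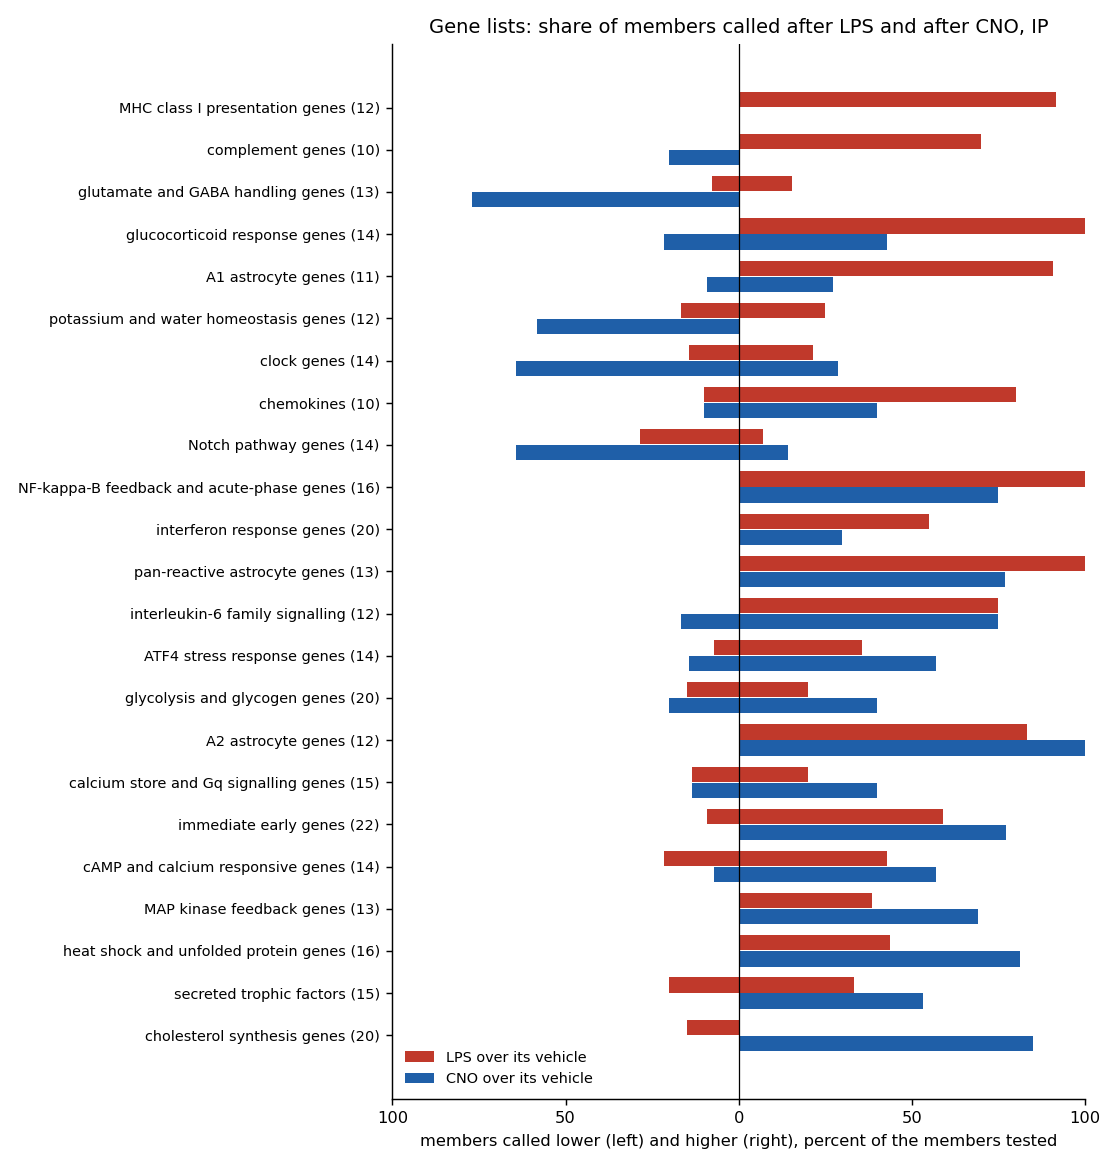
Share of the tested members of each gene list called higher (right of 0) and lower (left of 0), in percent, after LPS (red) and after CNO (blue), with the number of members tested in brackets. Lists run from those called higher more often after LPS at the top, such as MHC class I presentation with 11 of 12 higher after LPS and 0 (0 to 1) after CNO, to cholesterol synthesis at the bottom with 0 (0 to 3) of 20 higher after LPS and 17 after CNO.

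LPS-specific fallers were seldom enriched in the pull-down: 3.23% of the 744 were at least 2-fold above input in vehicle IP libraries, beside 12% of all genes tested. Cckbr, a receptor for the peptide cholecystokinin, had 0.603, 1.77, 0.835 and 0.739 FPKM in the LPS libraries, against 2.01, 3.78, 2.43 and 2.83 FPKM in their vehicle libraries. It had 2.26, 1.52, 2.45 and 2.97 FPKM in the CNO libraries, against 1.41, 1.96, 1.29 and 1.87 FPKM in the hM3Dq vehicle libraries. It was lower in all LPS mice than in their vehicles, and CNO and hM3Dq vehicle libraries overlapped. The change was -1.35 ± 0.29 (adjusted p = 0.013) after LPS and 0.49 ± 0.20 (adjusted p = 0.08) after CNO, and the difference was -1.84 ± 0.36 (adjusted p = 0.0017). Insc, an adaptor of the spindle orientation machinery, had 0.523, 2.21, 0.451 and 0.456 FPKM in the LPS libraries, against 3.00, 2.23, 4.16 and 3.87 FPKM in their vehicle libraries. It had 2.29, 2.06, 2.13 and 2.60 FPKM in the CNO libraries, against 2.92, 2.37, 2.40 and 2.28 FPKM in the hM3Dq vehicle libraries. LPS replicate 2 lay at the level of the lowest vehicle library and the 3 other LPS mice were well below. The LPS change was -1.91 ± 0.43 (adjusted p = 0.015), and -2.37 without LPS replicate 2. Of the 14 medium spiny neuron markers tested, 6 (2 to 7) fell after LPS and 1 (0 to 3) after CNO, beside 18.3% and 20.4% of all genes. A called difference was found for 2 (0 to 6) of them, beside 31.3% of all genes. With all libraries, the CNO count and the called differences are below those shares and are no result about the list. The part of these markers in the LPS-specific fallers was not tested. Gpr6, a receptor of medium spiny neurons, changed by -0.84 ± 0.18 (adjusted p = 0.013) after LPS, and its difference of -0.75 ± 0.23 (adjusted p = 0.021) was lost without LPS replicate 3 (adjusted p = 0.059).

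The CNO-specific risers included a growth factor receptor, an antioxidant enzyme and most of the cholesterol pathway. Met, the receptor of hepatocyte growth factor, had 1.27, 1.45, 2.22 and 1.40 FPKM in the LPS libraries, against 1.49, 1.14, 1.26 and 2.02 FPKM in their vehicle libraries. It had 21.8, 21.3, 19 and 19.1 FPKM in the CNO libraries, against 1.37, 1.11, 1.12 and 1.02 FPKM in the hM3Dq vehicle libraries. The CNO libraries were far above all 12 others, which overlapped. The change was 0.22 ± 0.23 (adjusted p = 0.47) after LPS and 4.06 ± 0.11 (adjusted p = 7.5e-08) after CNO, and the difference, LPS minus CNO, was -3.85 ± 0.26 (adjusted p = 1.1e-07). Srxn1, which repairs oxidised peroxiredoxins, had 39.1, 39.7, 38 and 27.1 FPKM in the LPS libraries, against 34.3, 34.3, 32.2 and 38.7 FPKM in their vehicle libraries. It had 361, 402, 382 and 337 FPKM in the CNO libraries, against 30.0, 29.1, 27.8 and 30.3 FPKM in the hM3Dq vehicle libraries. Again the CNO libraries were a tight group far above the rest, and the changes were 0.16 ± 0.12 (adjusted p = 0.32) after LPS and 3.70 ± 0.07 (adjusted p = 3.7e-08) after CNO.

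The promoters of these 2 genes are shown because both hold the AP-1 letters TGAGTCA, in capitals, and none of the other 5 motifs. No test showed these letters to be particular to the class: as given above, they were in 4.44% of CNO-specific risers, 6.65% of LPS-specific risers and 3.95% of all. In GRCm38.p6 (RefSeq), the 250 bases before the start of Met are chr6:17463707-17463956 (plus strand), with a match at bases 197 to 203, and those of Srxn1 are chr2:152105274-152105523 (plus strand), with matches at 149 to 155 and 206 to 212.
Met: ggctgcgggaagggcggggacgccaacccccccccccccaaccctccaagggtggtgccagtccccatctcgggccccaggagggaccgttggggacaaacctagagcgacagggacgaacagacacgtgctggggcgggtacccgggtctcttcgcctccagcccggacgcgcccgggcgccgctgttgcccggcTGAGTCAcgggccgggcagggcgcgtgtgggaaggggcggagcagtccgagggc
Srxn1: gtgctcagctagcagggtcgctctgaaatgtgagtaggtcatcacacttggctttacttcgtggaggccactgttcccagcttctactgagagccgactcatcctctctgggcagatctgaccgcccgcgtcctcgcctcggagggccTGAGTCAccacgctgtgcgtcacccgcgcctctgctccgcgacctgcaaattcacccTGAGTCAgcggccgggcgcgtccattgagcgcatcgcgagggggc

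Nr4a3, an immediate early nuclear receptor, had 4.05, 2.55, 3.73 and 3.50 FPKM in the LPS libraries, against 3.24, 3.72, 3.95 and 3.24 FPKM in their vehicle libraries. It had 36.9, 23.3, 18.9 and 16.5 FPKM in the CNO libraries, against 2.01, 2.41, 1.48 and 1.29 FPKM in the hM3Dq vehicle libraries. The LPS arms overlapped and the CNO arms did not, and the difference was -3.59 ± 0.35 (adjusted p = 4.8e-06). Egr2, a zinc finger factor, changed by -0.93 ± 0.43 (adjusted p = 0.12) after LPS and 2.23 ± 0.36 (adjusted p = 0.0012) after CNO. Lgals3, a galactose-binding lectin, had 3.21, 5.76, 4.5 and 5.81 FPKM in the LPS libraries, against 3.21, 1.11, 2.44 and 6.2 FPKM in their vehicle libraries. It had 15, 55, 28.2 and 34.9 FPKM in the CNO libraries, against 1.01, 1.65, 1.63 and 1.02 FPKM in the hM3Dq vehicle libraries. CNO replicate 2 was the highest of its group, all CNO libraries were above all others, and the difference was -3.59 ± 0.59 (adjusted p = 0.00046). Bdnf, brain-derived neurotrophic factor, had 0.302, 0.332, 0.563 and 0.330 FPKM in the LPS libraries, against 0.394, 0.675, 0.560 and 0.703 FPKM in their vehicle libraries. It had 3.62, 2.36, 2.58 and 2.45 FPKM in the CNO libraries, against 0.492, 0.550, 0.236 and 0.395 FPKM in the hM3Dq vehicle libraries. Levels were low, yet each CNO library was above every other library, and the change was -0.40 ± 0.23 (adjusted p = 0.19) after LPS and 2.52 ± 0.23 (adjusted p = 5.2e-05) after CNO, with a difference of -2.92 ± 0.35 (adjusted p = 2.8e-05).

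The cholesterol synthesis pathway, which converts acetyl-CoA into sterols and in the brain is most active in glia, rose after CNO almost as a whole. Of 20 genes tested, 0 (0 to 3) rose and 3 (1 to 4) fell after LPS, whereas 17 rose and 0 fell after CNO, and 17 had a called difference higher after CNO. The medians were -0.06 after LPS and 1.06 after CNO. Without LPS replicate 2, 3 rose and 4 fell after LPS, and with the deposited scaling 0 rose and 6 fell. Pmvk, phosphomevalonate kinase, had 26, 29.5, 22.8 and 22.6 FPKM in the LPS libraries, against 25, 27.7, 24.4 and 26.7 FPKM in their vehicle libraries. It had 278, 214, 294 and 229.8 FPKM in the CNO libraries, against 36.8, 41.1, 33.8 and 39.1 FPKM in the hM3Dq vehicle libraries. Msmo1, a methylsterol monooxygenase, had 80.1, 83.3, 95.4 and 102 FPKM in the LPS libraries, against 89.7, 106, 103 and 109 FPKM in their vehicle libraries. It had 606.6, 668, 609.3 and 583.5 FPKM in the CNO libraries, against 131, 137, 133 and 148 FPKM in the hM3Dq vehicle libraries. For both the CNO libraries were above all others, while LPS and LPS vehicle libraries overlapped. Pmvk changed by 0.09 ± 0.07 (adjusted p = 0.37) after LPS and 2.78 ± 0.11 (adjusted p = 6.4e-07) after CNO, and Msmo1 by -0.05 ± 0.11 (adjusted p = 0.77) and 2.21 ± 0.07 (adjusted p = 2.6e-07).

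Of 13 MAP kinase feedback genes, 5 (2 to 7) rose after LPS and 9 after CNO, with 2 (1 to 2) differences higher after LPS and 6 higher after CNO. Spry2, an inhibitor of receptor tyrosine kinase signalling, changed by -0.14 ± 0.12 (adjusted p = 0.35) after LPS and 1.36 ± 0.08 (adjusted p = 4.1e-06) after CNO, and Dusp6, the phosphatase of ERK, by -0.43 ± 0.19 (adjusted p = 0.11) and 0.79 ± 0.13 (adjusted p = 0.0013). Of 16 heat shock and unfolded protein genes, 7 (4 to 10) rose after LPS and 13 after CNO, and 9 had a difference higher after CNO. Xbp1, the splicing-activated factor of the unfolded protein response, changed by -0.20 ± 0.12 (adjusted p = 0.22) after LPS and 0.99 ± 0.14 (adjusted p = 0.00062) after CNO. Of 14 ATF4 stress response genes, 5 rose and 1 (0 to 2) fell after LPS, and 8 rose and 2 fell after CNO. Atf4 itself rose in both experiments, by 0.78 ± 0.09 (adjusted p = 0.0018) after LPS and 1.71 ± 0.18 (adjusted p = 0.00011) after CNO, with a difference of -0.93 ± 0.21 (adjusted p = 0.0048). Of 15 secreted trophic factors, 5 (3 to 7) rose and 3 fell after LPS, and 8 rose after CNO. Beside the counts of these lists stand 17.4% of all genes higher and 18.3% lower after LPS, and 23.8% and 20.4% after CNO. The fallers of the ATF4 and trophic lists are near or below those shares and are no result about the lists.

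**Figure D5:**
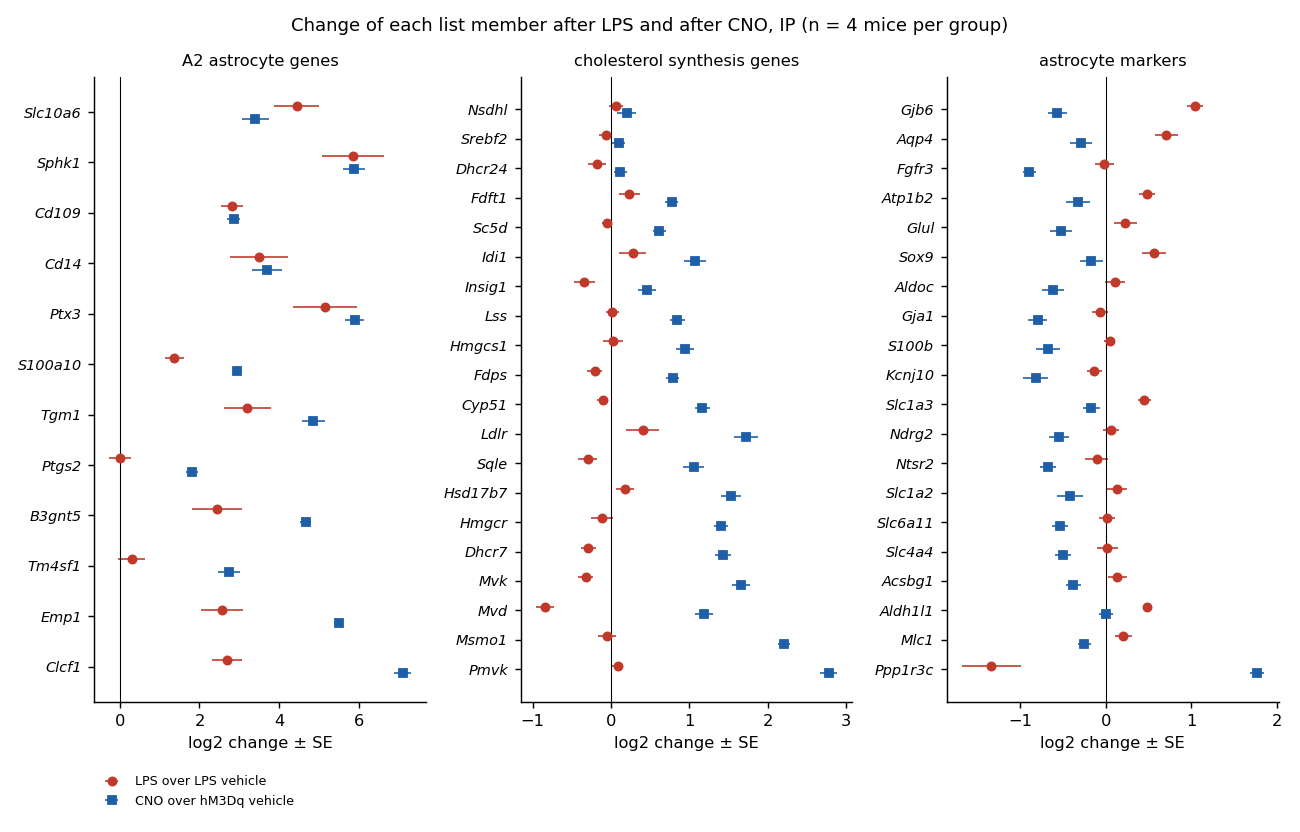
Log2 change ± SE of each member of the A2, cholesterol synthesis and astrocyte marker lists after LPS (red circles) and after CNO (blue squares), 4 mice per group. Clcf1 lies at 2.69 after LPS and 7.09 after CNO, Pmvk at 0.09 and 2.78, and Gjb6 at 1.04 and -0.56.

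The CNO-specific fallers included most of the astrocyte markers. Of the 20 astrocyte markers, 6 rose and 1 (0 to 1) fell after LPS, whereas 1 rose and 14 fell after CNO, and 19 had a called difference higher after LPS. The medians were 0.12 after LPS and -0.51 after CNO. As given above, the summed markers of CNO libraries lay below those of hM3Dq vehicle libraries, and whether this reflects the astrocyte content of the pull-down was not tested. Fgfr3, a fibroblast growth factor receptor of astrocytes, had 74.1, 128, 95.6 and 102 FPKM in the LPS libraries, against 107, 114, 110.4 and 103 FPKM in their vehicle libraries. It had 74.6, 75.3, 67.5 and 64.1 FPKM in the CNO libraries, against 137, 128, 136 and 134 FPKM in the hM3Dq vehicle libraries. The CNO libraries were below their vehicles without overlap and the LPS libraries overlapped theirs, and the changes were -0.01 ± 0.11 (adjusted p = 0.93) after LPS and -0.89 ± 0.08 (adjusted p = 3.6e-05) after CNO.

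Gja1, the gap junction protein connexin 43, had 236, 242, 259 and 290.1 FPKM in the LPS libraries, against 304, 292, 305 and 274 FPKM in their vehicle libraries. It had 272, 233, 212 and 199.9 FPKM in the CNO libraries, against 387, 406, 397 and 428 FPKM in the hM3Dq vehicle libraries. The CNO arms did not overlap, and its changes were -0.07 ± 0.10 (adjusted p = 0.62) after LPS and -0.79 ± 0.11 (adjusted p = 0.00053) after CNO, with a difference of 0.72 ± 0.15 (adjusted p = 0.0025). Kcnj10, the potassium channel Kir4.1, had 55.1, 74.3, 67.9 and 75 FPKM in the LPS libraries, against 77.6, 85.1, 85 and 77.8 FPKM in their vehicle libraries. It had 86.3, 87.4, 65.1 and 58.1 FPKM in the CNO libraries, against 141, 129, 127 and 133 FPKM in the hM3Dq vehicle libraries. In both experiments the treated libraries lay below their vehicles in deposited FPKM, before the scaling used in the fit. On the scaled values the change after LPS was -0.13 ± 0.09 (adjusted p = 0.24) and was not called. The change was -0.81 ± 0.15 (adjusted p = 0.0022) after CNO, with a difference of 0.68 ± 0.18 (adjusted p = 0.011). Thrsp, a regulator of fatty acid synthesis, had 28.2, 30.7, 40.8 and 52 FPKM in the LPS libraries, against 27.6, 31.5, 29.1 and 26 FPKM in their vehicle libraries. It had 11, 7.25, 7.4 and 6.93 FPKM in the CNO libraries, against 35.9, 39.4, 36.5 and 37.6 FPKM in the hM3Dq vehicle libraries. It was lower in all CNO mice, with a log2 change of -2.17 ± 0.15 (adjusted p = 9.4e-06), and its change after LPS was 0.50 ± 0.20 (adjusted p = 0.079).

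Of 13 genes of glutamate and GABA handling, 2 (1 to 4) rose and 1 (0 to 1) fell after LPS, and 10 fell after CNO, with 6 called differences higher after LPS. With the deposited scaling 1 rose and 5 fell after LPS. Slc6a11, the astrocytic GABA transporter, changed by 0.01 ± 0.09 (adjusted p = 0.92) after LPS and -0.53 ± 0.09 (adjusted p = 0.0019) after CNO, and the glutamate transporter Slc1a3 by 0.45 ± 0.08 (adjusted p = 0.007) and -0.16 ± 0.10 (adjusted p = 0.24). Of 12 potassium and water homeostasis genes, 3 (3 to 5) rose and 2 fell after LPS, and 7 fell after CNO. Of 14 clock genes, 3 (0 to 9) rose (9 without LPS replicate 2) and 2 fell after LPS, and 4 rose and 9 fell after CNO. Over all genes, 17.4% were higher and 18.3% lower after LPS, and 23.8% and 20.4% after CNO. With all libraries, the LPS counts of the glutamate and GABA, potassium and water, and clock lists are near or below those shares and are no result about the lists. Per3, a repressor of the circadian loop, changed by -0.09 ± 0.09 (adjusted p = 0.46) after LPS and -1.19 ± 0.09 (adjusted p = 1.7e-05) after CNO, and Nr1d2, the receptor REV-ERB beta, fell in both, with changes of -0.69 ± 0.08 (adjusted p = 0.0018) and -0.68 ± 0.08 (adjusted p = 0.00021).

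Ependymal markers, which belong to the ciliated cells lining the ventricle, fell with this class. Of the 8 tested, 1 rose after LPS and 6 fell after CNO, beside 17.4% of all genes higher after LPS and 20.4% lower after CNO. The LPS count is near its share and is no result about the list. The list summed to 85.7 to 170.2 FPKM in LPS and 70.2 to 122 FPKM in LPS vehicle IP libraries, and to 51.9 to 95.2 FPKM in CNO and 126 to 183 FPKM in hM3Dq vehicle IP libraries. Ccdc153, a ciliary gene, was at 4.11 ± 0.698 FPKM in CNO and 18.7 ± 6.30 FPKM in hM3Dq vehicle libraries (SD, n = 4 each). The part of these cells in the CNO-specific fallers was not tested.

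Of 15 calcium store and Gq signalling genes, 3 (3 to 5) rose and 2 (2 to 5) fell after LPS (7 with the deposited scaling), and 6 rose and 2 (1 to 3) fell after CNO, with medians of -0.08 and -0.06. Beside the 17.4% and 18.3% of all genes called higher and lower after LPS and the 23.8% and 20.4% after CNO, most of these counts are near the background and are no result about the list. Itpr2, the calcium release channel of astrocytes, changed by 0.33 ± 0.13 (adjusted p = 0.072) after LPS and -0.64 ± 0.11 (adjusted p = 0.0015) after CNO, with a difference of 0.98 ± 0.17 (adjusted p = 0.00083). Prkcd, a protein kinase C, rose in both, by 2.00 ± 0.23 (adjusted p = 0.0018) and 0.60 ± 0.13 (adjusted p = 0.0064), and more after LPS (difference 1.40 ± 0.28 (adjusted p = 0.0017)). Of 14 genes responsive to cAMP and calcium, 6 (1 to 7) rose and 3 (1 to 3) fell after LPS, and 8 rose and 1 fell after CNO, with 1 (0 to 4) differences higher after LPS and 7 higher after CNO. Rgs2, which speeds the inactivation of Gq, was at 11.3 ± 4.30 FPKM in LPS and 23.3 ± 1.39 FPKM in LPS vehicle libraries, and at 22 ± 5.77 FPKM in CNO and 13.5 ± 1.98 FPKM in hM3Dq vehicle libraries (SD, n = 4 each). It passed in opposite directions, with changes of -0.97 ± 0.17 (adjusted p = 0.0074) and 0.71 ± 0.18 (adjusted p = 0.011). The vehicle groups of Rgs2 were themselves at unlike levels, and the part of this in the opposite changes was not tested.

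Of 20 glycolysis and glycogen genes, 4 (3 to 8) rose and 3 (1 to 4) fell after LPS (8 and 4 without LPS replicate 2), and 8 rose and 4 fell after CNO. The LPS counts and the fallers after CNO are likewise near the shares over all genes. Hk2, an inducible hexokinase, rose in both, by 2.58 ± 0.40 (adjusted p = 0.0048) and 3.58 ± 0.26 (adjusted p = 1.5e-05). Aldoc, the astrocytic aldolase, changed by 0.11 ± 0.12 (adjusted p = 0.47) after LPS and -0.61 ± 0.12 (adjusted p = 0.0037) after CNO, and its CNO call was lost without the filter on low values (adjusted p = 0.14). Of markers of cells other than astrocytes, 3 (1 to 8) of 10 oligodendrocyte markers rose after LPS (8 without LPS replicate 2) and 1 (0 to 3) after CNO. Of 9 microglial markers, 2 (1 to 2) rose and 1 (0 to 2) fell after LPS and 2 (1 to 2) fell after CNO. Of 6 endothelial markers, 2 (1 to 3) rose after LPS and 0 (0 to 1) after CNO. Of 10 interneuron markers, 1 (0 to 2) rose after LPS and 1 (0 to 2) fell after CNO, and the single leukocyte marker tested passed in neither experiment. Over all genes, 17.4% were higher and 18.3% lower after LPS, and 23.8% and 20.4% after CNO. With all libraries, most counts of these marker lists are near or below those shares and are no result about the lists.

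Opposite genes passed in both experiments with opposite signs. Those named from this class by the size of their changes were required to have arms without overlap in both experiments. For them the absence of overlap given below is no result. Txnip, an inhibitor of thioredoxin and of glucose uptake, had 90.5, 27.9, 62.7 and 75.1 FPKM in the LPS libraries, against 27.3, 14.2, 19.6 and 16 FPKM in their vehicle libraries. It had 1.47, 3.47, 4.75 and 3.18 FPKM in the CNO libraries, against 16.8, 28, 15.1 and 14 FPKM in the hM3Dq vehicle libraries. All LPS libraries were above their vehicles and all CNO libraries below theirs. The changes were 1.78 ± 0.40 (adjusted p = 0.015) after LPS and -2.50 ± 0.33 (adjusted p = 0.00041) after CNO, and the difference was 4.28 ± 0.55 (adjusted p = 5.2e-05). Tsc22d3, the glucocorticoid-induced leucine zipper, had 152, 112, 138 and 179.9 FPKM in the LPS libraries, against 79, 71.7, 50.6 and 51.2 FPKM in their vehicle libraries. It had 23.9, 31.3, 47.1 and 27.9 FPKM in the CNO libraries, against 93.5, 103, 53.4 and 61.8 FPKM in the hM3Dq vehicle libraries. Neither pair of arms overlapped, and the changes were 1.35 ± 0.22 (adjusted p = 0.0053) and -1.21 ± 0.25 (adjusted p = 0.0045).

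Sult1a1, a phenol sulfotransferase, had 22.2, 53.1, 22.4 and 21 FPKM in the LPS libraries, against 10.5, 10.1, 9.73 and 8.64 FPKM in their vehicle libraries. It had 10.3, 6.97, 8.83 and 5.62 FPKM in the CNO libraries, against 18, 19, 15.1 and 15.3 FPKM in the hM3Dq vehicle libraries. LPS replicate 2 was the highest LPS library here, and the changes were 1.61 ± 0.24 (adjusted p = 0.004) after LPS and -1.06 ± 0.19 (adjusted p = 0.0019) after CNO. All LPS vehicle libraries were below all hM3Dq vehicle libraries for Sult1a1, so the 2 changes started from unlike levels. Gjb6, the gap junction protein connexin 30, had 93.6, 105, 106 and 99 FPKM in the LPS libraries, against 58.2, 57.2, 54.1 and 45.6 FPKM in their vehicle libraries. It had 45.2, 40.0, 49.3 and 37.3 FPKM in the CNO libraries, against 71.7, 71.8, 58.2 and 59.1 FPKM in the hM3Dq vehicle libraries. The LPS libraries were above and the CNO libraries below their vehicles, and the changes were 1.04 ± 0.09 (adjusted p = 0.00067) and -0.56 ± 0.11 (adjusted p = 0.0033).

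In the other direction, Ppp1r3c, which targets a phosphatase to glycogen and promotes its synthesis, had 17.7, 78.1, 26.7 and 35.7 FPKM in the LPS libraries, against 90.3, 98.4, 91.9 and 94.3 FPKM in their vehicle libraries. It had 487, 397, 419.7 and 424 FPKM in the CNO libraries, against 129.7, 128, 125 and 139.8 FPKM in the hM3Dq vehicle libraries. Every LPS library was below and every CNO library above its vehicles. The changes were -1.33 ± 0.34 (adjusted p = 0.022) after LPS and 1.76 ± 0.08 (adjusted p = 1.2e-06) after CNO, and the difference was -3.10 ± 0.36 (adjusted p = 2.4e-05). The LPS call of Ppp1r3c was lost without any 1 of 6 of the 8 libraries, that is all but LPS replicate 1 and LPS replicate 2 (adjusted p = 0.052 to 0.068), while without LPS replicate 2 the change was -1.68. Fgfr2, a fibroblast growth factor receptor, had 11.8, 28.9, 14 and 13.5 FPKM in the LPS libraries, against 33.6, 32.4, 38.2 and 34.5 FPKM in their vehicle libraries. It had 99.2, 82.4, 75.3 and 63.5 FPKM in the CNO libraries, against 39.6, 37.1, 41.8 and 38.5 FPKM in the hM3Dq vehicle libraries. Both pairs of arms were apart, with changes of -0.98 ± 0.21 (adjusted p = 0.013) and 1.05 ± 0.14 (adjusted p = 0.00036). Mvd, a decarboxylase of the cholesterol pathway, had 7.16, 9.33, 8.95 and 10.3 FPKM in the LPS libraries, against 15.4, 18.2, 17.5 and 19.3 FPKM in their vehicle libraries. It had 57.6, 69.6, 49.9 and 52.2 FPKM in the CNO libraries, against 26.3, 27.6, 23.9 and 24.8 FPKM in the hM3Dq vehicle libraries. It was lower in all LPS and higher in all CNO libraries than in their vehicles, with changes of -0.85 ± 0.11 (adjusted p = 0.003) and 1.19 ± 0.11 (adjusted p = 6.2e-05).

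The enrichment of each class in the pull-down of vehicle mice, and its calls in input, are given as a description. As the marker sums above show, enrichment in IP is not particular to astrocytes. At least 2-fold enrichment in IP over input in the 8 vehicle mice was found for 44.9% of genes higher after LPS and lower after CNO, 38.6% of CNO-specific fallers, 23.5% of shared fallers and 19.7% of LPS-specific risers. It was found for 14.4% of shared risers, 5.71% of CNO-specific risers, 5.57% of genes lower after LPS and higher after CNO and 3.23% of LPS-specific fallers, beside 12% of all genes tested. In input, 4355 of 15272 genes passed after LPS (28.5%), 2290 of them higher (15%), and 3.62% passed after CNO, with 2.57% higher. Of the shared risers also tested in input, 59% passed higher there after LPS and 20.9% after CNO. Of the LPS-specific risers 68.1% passed higher in input after LPS, and of the CNO-specific risers 7.36% after CNO. Sphk1, for example, changed in input by log2 3.67 after LPS (adjusted p = 0.012) and 3.43 after CNO (adjusted p = 0.00043), and Lcn2 by 8.03 after LPS (adjusted p = 1.2e-05). Input counts moved by more than 1.5 times when single libraries were left out, to 912 to 4600 higher after LPS and 193 to 347 higher after CNO.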

How the data were processed

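RNA of the IP and input libraries of 16 mice was used, grouped by the labels. The labels' protocols name a stranded kit for total RNA depleted of ribosomal RNA, but the molecule label reads polyA RNA, so the selection is uncertain. STAR, HTSeq and mm10 are named, without versions, in the submitters' processing notes. The authors deposited FPKM per gene for 24060 entries, and 20901 had a value above 0 in these 32 libraries. The labels do not name the unit, which was taken from the values. Whole reads were recovered from these FPKM, and 100% of values above 0 came out whole within 0.001 reads. Library totals were 42482788 to 82256193 reads in IP and 24697177 to 42300301 in input.

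Deposited FPKM were scaled with TMM factors over the 16 libraries of a fraction, and log2(FPKM + 0.1) was fitted with limma 3.58.1 in R 4.3.3 (limma-trend, two-sided), for genes reaching 0.5 FPKM in 4 or more libraries (14108 in IP, 15272 in input). Each treatment was fitted with its own vehicle, and the difference, LPS change minus CNO change, in 1 fit of all 16. The call was a p under 0.05 after Benjamini-Hochberg adjustment over all genes tested. Fold changes are on the log2(FPKM + 0.1) scale, which understates changes of low genes. Printed FPKM are the deposited values, and overlap between libraries was judged on these values before scaling. The labels do not say more of the replicates than that they are separate mice. The fits were also run on simulated data, with few genes changed and no outlying library such as LPS replicate 2. That run therefore does not cover these features of the data. Tables and plots used Python 3.11.15, numpy 2.4.6, pandas 2.3.3 and matplotlib 3.10.9.

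The classes, the 33 gene lists, the motifs and the genes named were chosen with earlier results of these data known, so no list is independent support. Named genes had a mean of at least 2 FPKM in a group and arms without overlap in each experiment their class calls. They were the 8 shared risers and 6 shared fallers with the largest smaller change, 6 risers and 5 fallers of each specific class and 5 opposite genes each way, and up to 4 members of each list with the largest difference and up to 2 shared members with the smallest. Chrm3, Kcnj10 and the astrocyte markers were added as checks. Not all of the 188 genes so chosen are described. Alternatives were RLE scaling, no scaling, a pseudocount of 1 or 0.01, array weights, no filter on low values, a replicate block, the spread over 16 libraries, voom on recovered reads and leaving out each library. Giving the counts without LPS replicate 2 or CNO replicate 2 beside the results was decided after seeing the data.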

Additional observations from a re-analysis of the deposited data

Results flagged for a closer look

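In groups of 4 libraries a value was marked when its gap to the nearest other, divided by the group's range, passed Dixon's critical value for 4 values. Of 176 such groups, the 4 groups of 42 genes and of the 2 library positions, 19 were marked, and chance marks about 1 in 20. LPS replicate 2 accounts for 7 of them. Its position along the LPS change was 50.5%, and its level was set apart from the 3 other LPS mice for Maff (6.06 FPKM), Nrarp (14.4 FPKM), Hes5 (4.98 FPKM), Insc (2.21 FPKM), Sult1a1 (53.1 FPKM) and Fgfr2 (28.9 FPKM). For Sult1a1 it was the highest LPS mouse and its rise went beyond that of the others, while for the other genes it lay on the vehicle side of its group.

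CNO replicate 2 accounts for 5, all of inflammatory genes and all above its group. These were Lcn2 (11.8 FPKM), Tlr2 (2.00 FPKM), Cxcl10 (73.4 FPKM), C3 (17.6 FPKM) and Tapbp (100.4 FPKM). Its Chrm3 value of 63.3 FPKM is far above the 2.42 to 4.63 FPKM of the LPS libraries. Of single libraries, Socs3 was at 3.51 FPKM in LPS vehicle replicate 4 and Maff at 4.97 FPKM in hM3Dq vehicle replicate 1, both above their groups. Hes5 was at 29.4 FPKM in LPS vehicle replicate 2, above its group, and Emp1 at 1.90 FPKM in hM3Dq vehicle replicate 2, below its group. Srxn1 was at 27.1 FPKM in LPS replicate 4, below its group, and Bdnf at 0.563 FPKM in LPS replicate 3, above its group. Thrsp was at 11 FPKM in CNO replicate 1, above its group.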

How the results depend on the processing

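Of 397 called changes of the 188 named genes, 305 stayed called with the same sign under all alternatives, none reversed, and 514 of 7532 comparisons lost the call. With array weights LPS gave 4377 genes higher and 4812 lower, 4818 and 4474 in input, and the difference 3605 higher after LPS and 4046 lower. Classes then held 1910 shared risers, 1590 shared fallers, 1298 LPS-specific risers, 1758 LPS-specific fallers and 1308 opposite genes. With the deposited scaling 3973 genes were lower after LPS, with 363 LPS-specific risers and 1360 shared fallers, and the median LPS change of all genes was then -0.16. voom on recovered reads called 2714 higher and 2244 lower after LPS and 3366 and 2950 after CNO. The deviations of same-numbered mice correlated by 0.12, 0.08, -0.05 and -0.01 in the LPS and -0.07, 0.04, 0.05 and 0.03 in the hM3Dq experiment. No strong shared deviation was thus seen, which cannot show that same-numbered mice were unpaired. With the number as a block, LPS in input gave 1452 higher and 1145 lower, CNO in input 144 and 38, and the opposite classes held 297 genes. With single libraries left out, LPS gave 1312 to 4099 higher and 749 to 4361 lower, and 912 to 4600 and 684 to 4247 in input. CNO gave 3042 to 3498 higher and 2070 to 2862 lower, and 193 to 347 and 78 to 117 in input. The difference gave 1453 to 3096 higher after LPS and 1991 to 3636 lower. Shared risers numbered 696 to 1790, shared fallers 290 to 1318, LPS-specific risers 303 to 1239, LPS-specific fallers 210 to 1570, CNO-specific risers 719 to 1382 and CNO-specific fallers 608 to 979. Opposite genes in both directions numbered 190 to 1035, against 490 with all libraries. The cause of these moves was not tested, beyond that fewer libraries enter. A gene not called after LPS is not shown to be unchanged. Genes near the floor of 0.5 FPKM rest on few reads.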
